A study of Mus musculus with 26 samples.

Results

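Hoxa3, Hoxa5, Hoxa7, Hoxa9, Hoxa10 and Meis1 were followed through 8 blood cell progenitor populations by taking every probe set, the array's unit of measurement, that is annotated to exactly 1 of these gene symbols. The rule gave 14 probe sets of 6 genes, out of 34958 probe sets annotated to 1 symbol and 45037 tested. Hoxa3 had 4 probe sets, Meis1 had 3, Hoxa5, Hoxa9 and Hoxa10 had 2 each, and Hoxa7 had 1. Messenger RNA had been hybridised to 26 Affymetrix arrays, 1 per sample. The mice were C57/Bl6 males aged 2 months, per the labels. Bone marrow gave MPPFL- (n = 5), MPPFL+, CMP, GMP and CLP (n = 3 each), and thymocytes gave DN1, DN2 and DN3 (n = 3 each). MPP is the usual name of multipotent progenitors, CMP and GMP of common myeloid and granulocyte-macrophage progenitors, CLP of common lymphoid progenitors, and DN1 to DN3 of successive early thymocyte stages. Another label spells the MPPFL names MMPFL and gives ALP for CLP. No genotype, allele or treatment is given for any population. Whether the replicates of a population were separate animals is not stated, so p-values measure the spread between these samples, which may be technical.

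The Hoxa genes encode homeodomain transcription factors whose genes lie side by side in 1 cluster. In blood formation, Hoxa9 maintains stem and progenitor cells in mice, and sustained Hoxa9 blocks myeloid differentiation. Meis1 encodes a homeodomain protein of the TALE class that binds DNA together with Pbx and Hox proteins. Hoxa9 and Meis1 are together abundant in leukaemias with rearranged KMT2A, the human counterpart of mouse Kmt2a, and in mice they jointly cause leukaemia.

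In the RefSeq gene table of GRCm38.p6 the Hoxa members lay on chromosome 6, minus strand: Hoxa3 at chr6:52169059-52213067, Hoxa5 at chr6:52201754-52204587, Hoxa7 at chr6:52215623-52218573, Hoxa9 at chr6:52223097-52227370 and Hoxa10 at chr6:52231197-52240854. Meis1 lay at chr11:18880428-19019651. The 250 bases before a RefSeq start are shown for Hoxa9 and Meis1, the members with the widest range of levels, and for Hoxa7, whose order of populations was unlike theirs. They are read 5′ to 3′ on the gene's strand from RefSeq sequence of GRCm38.p6, and capitals mark CG dinucleotides. The windows are chr6:52227371-52227620 for Hoxa9, chr6:52218574-52218823 for Hoxa7 and chr11:19018970-19019219 for Meis1. The Hoxa9 and Hoxa7 windows abut the gene's 5′ end, whereas the Meis1 window belongs to a start 682 bases inside the gene interval and lies wholly within that interval.
Hoxa9: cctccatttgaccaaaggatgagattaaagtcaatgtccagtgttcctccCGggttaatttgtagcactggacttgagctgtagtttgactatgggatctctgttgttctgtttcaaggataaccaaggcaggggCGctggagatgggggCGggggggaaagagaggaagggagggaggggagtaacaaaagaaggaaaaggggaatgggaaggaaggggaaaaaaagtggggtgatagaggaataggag
Hoxa7: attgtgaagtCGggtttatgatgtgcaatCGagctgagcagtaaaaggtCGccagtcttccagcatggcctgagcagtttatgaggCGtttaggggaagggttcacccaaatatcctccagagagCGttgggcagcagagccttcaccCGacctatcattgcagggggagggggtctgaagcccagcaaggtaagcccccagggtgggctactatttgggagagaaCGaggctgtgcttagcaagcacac
Meis1: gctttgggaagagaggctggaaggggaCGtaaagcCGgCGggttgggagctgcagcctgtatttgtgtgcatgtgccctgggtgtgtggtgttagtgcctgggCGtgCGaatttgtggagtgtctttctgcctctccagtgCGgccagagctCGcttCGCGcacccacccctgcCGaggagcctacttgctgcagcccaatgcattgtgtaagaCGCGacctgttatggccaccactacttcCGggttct
The Hoxa9 window held 3 CG dinucleotides, the Hoxa7 window 7 and the Meis1 window 13, beside a median of 6 over 32851 RefSeq windows of the same length. Among the member windows not shown, Hoxa5 had 28, Hoxa3 had 18, and those of the 2 Hoxa10 starts had 7 at the gene's 5′ end and 20 at a start inside the gene. The core of the Meis motif, TGACAG, searched on both strands, occurred in 1 of the 7 member windows, that of Hoxa3, and in 15.9% of all windows. A combined Pbx and Hox motif, TGATTNAT, occurred in 0 of the 7 and in 2.82% of all windows. The motifs were searched separately, and no match was counted under both.

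Levels are log2 values as deposited. The lowest value of the table, 2.17, recurred on every array and was taken by 30.2% to 37.1% of probe sets. Array medians lay between 2.74 and 3.05. All 26 arrays correlated best with an array of their own population. Marker levels followed the names of the populations in part: Flt3 averaged 13.31 in MPPFL+ and 10.99 in MPPFL-, Il7r 13.23 in CLP, Mpo 16.11 in GMP, and Il2ra 13.14 in DN2 and 13.16 in DN3. The markers were not confined to these populations. Flt3 averaged 13.58 in CLP, Mpo 14.15 in CLP and 13.59 in DN1, and Il2ra 7.37 in DN1. Xist, the noncoding RNA that coats the silenced X in females, was above 5 on 2 DN1 and 2 DN2 arrays although all arrays are labelled male. The 4 arrays were not alike. DN1 replicate 3 and DN2 replicate 2 also lacked signal of the Y-linked gene Eif2s3y, with 2.62 and 2.17, which goes against the male label. DN1 replicate 1 and DN2 replicate 3 had Eif2s3y at 12.76 and 13.34 together with Xist at 12.21 and 6.30. Differences of members and of named listed genes that involve DN1 or DN2 are also given without these 4 arrays. That leaves 1 DN1 and 1 DN2 array, assumed to vary like the other populations. The signal difference between 3′ and 5′ control probe sets, a measure of RNA length, was 4.18 on the DN1 array kept, the highest of all arrays. It was 3.15 and 1.64 on the DN1 arrays left out. On the DN2 array kept it was 3.65, against 3.00 and 2.93 on those left out. Its part in the results without the 4 arrays was not tested. CMP replicate 1 had the highest array median and the lowest share at the lowest value, and a spike-in cluster of its own. The mean of the spike-in controls, RNA added before labelling, was 4.60 in MPPFL-, 4.48 in MPPFL+, 9.86 in CMP, 8.05 in GMP, 4.42 in CLP, 2.56 in DN1, 2.54 in DN2 and 12.09 in DN3. Population and spike-in signal therefore cannot be told apart in 5 of the comparisons below, which are GMP with CMP, CMP with MPPFL+, CLP with GMP, DN1 with CLP and DN3 with DN2. In RNA from many cells, fewer cells with a transcript and less transcript per cell cannot be told apart.

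Hoxa9 was near the top of the scale in both MPP populations and in DN1, lower in GMP, and lowest in DN3. Its leading probe set, the one with the highest mean over all arrays (1455626_at), gave 14.50, 14.32, 14.44, 14.42 and 14.34 in MPPFL-, and 14.61, 14.51 and 14.33 in MPPFL+. CMP arrays gave 12.94, 13.32 and 13.31, and GMP arrays 11.15, 11.43 and 11.34. CLP arrays gave 13.97, 14.04 and 13.87. In the thymus the values were 14.47, 14.58 and 14.25 in DN1, 12.47, 11.94 and 12.52 in DN2, and 5.93, 6.78 and 6.84 in DN3. In order of mean level MPPFL+, DN1 and MPPFL- shared the top with overlapping arrays. CLP, CMP, DN2, GMP and DN3 followed, each without overlap with its neighbour. DN3 stood apart, with its highest array more than 4 log2 units under the lowest array of any other population. The second Hoxa9 probe set, 1421579_at, was dim: it lay between 2.88 and 5.43 in MPPFL-, between 3.36 and 3.56 in MPPFL+, and between 2.17 and 3.34 elsewhere.

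Meis1 was highest in the MPP populations and descended along both the myeloid and the thymic stages. The leading probe set, 1450992_a_at, gave 14.21, 13.89, 14.18, 14.18 and 14.24 in MPPFL-, and 14.10, 13.81 and 13.71 in MPPFL+. It gave 11.92, 12.24 and 12.41 in CMP, 8.94, 8.36 and 8.96 in GMP, and 12.44, 12.37 and 12.34 in CLP. DN1 arrays had 10.19, 10.91 and 10.68, DN2 arrays 6.58, 5.68 and 6.11, and DN3 arrays 4.10, 3.72 and 5.32. MPPFL- and MPPFL+ overlapped, CLP and CMP overlapped, and below them DN1, GMP, DN2 and DN3 followed without overlap. Its population means spanned 9.76 log2 units, beside 7.97 for Hoxa9.

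The other Meis1 probe sets did not give the same order. Probe set 1443260_at had 12.29, 12.35, 12.61, 12.35 and 12.43 in MPPFL-, and 10.44, 9.90 and 11.10 in MPPFL+. It averaged 10.69 ± 0.31 in CMP, 4.21 ± 0.17 in GMP, 8.11 ± 0.69 in CLP, 8.49 ± 0.46 in DN1 and 3.59 ± 0.62 in DN2 (SD, n = 3 each), and lay at the lowest value of the table on all DN3 arrays. MPPFL- was here above MPPFL+ with no overlap. Probe set 1459423_at had 10.76, 10.19, 10.93, 10.53 and 10.74 in MPPFL-, and 2.43, 2.41 and 2.37 in MPPFL+. In the remaining populations it lay between 2.22 and 3.06. It was thus bright in MPPFL- and near its lowest level in the other 7 populations. Over the 8 population means, the leading set had a Pearson correlation of 0.952 with 1443260_at and of 0.449 with 1459423_at. The transcripts that each probe set detects were not tested.

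**Figure D1:**
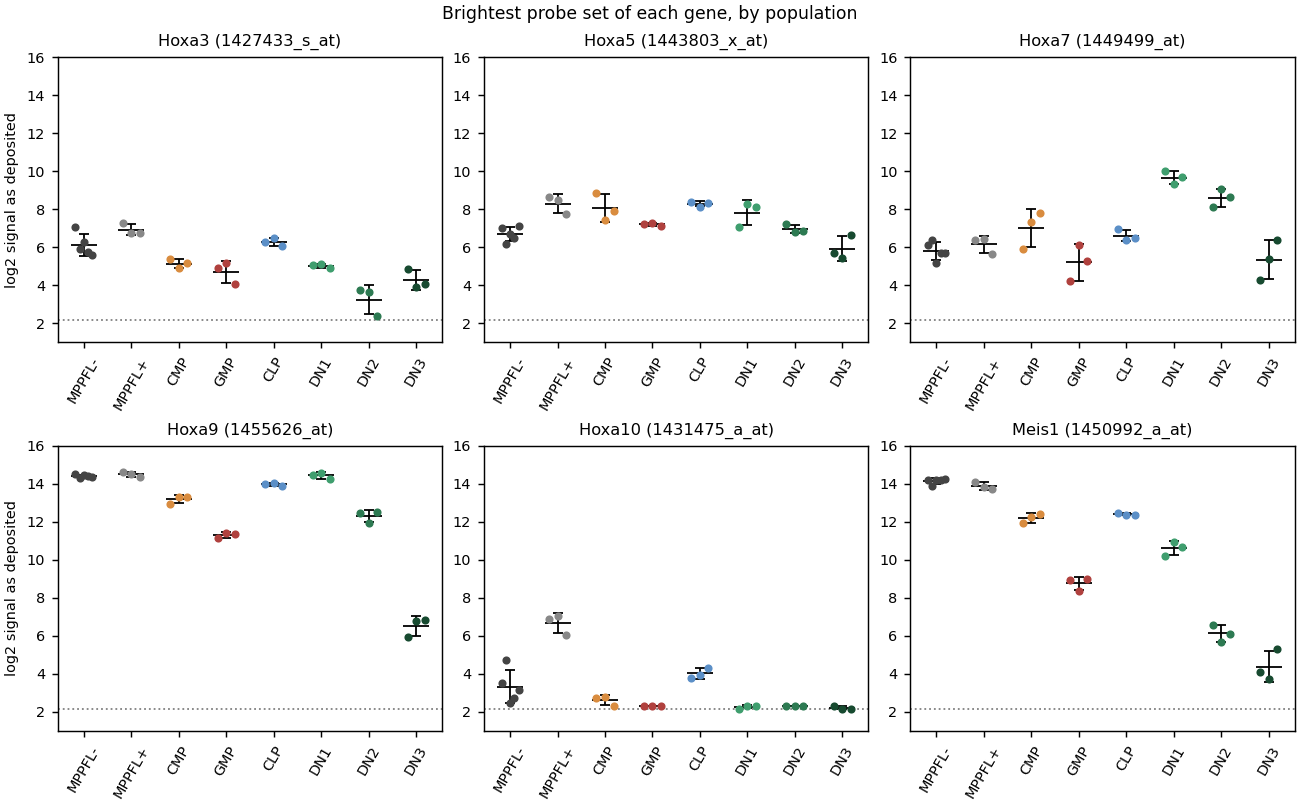
Log2 signal as deposited (vertical axis) of the leading probe set of each member in the 8 populations (horizontal axis). Points are arrays, horizontal bars means with SD (n = 5 for MPPFL-, n = 3 otherwise), and the dotted line is the lowest value of the table. Hoxa9 means lie between 11.31 and 14.48 outside DN3 and at 6.52 in DN3, Meis1 is highest in MPPFL- at 14.14 and lowest in DN3 at 4.38, Hoxa7 peaks in DN1 at 9.66 and Hoxa10 in MPPFL+ at 6.66.

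**Figure D2:**
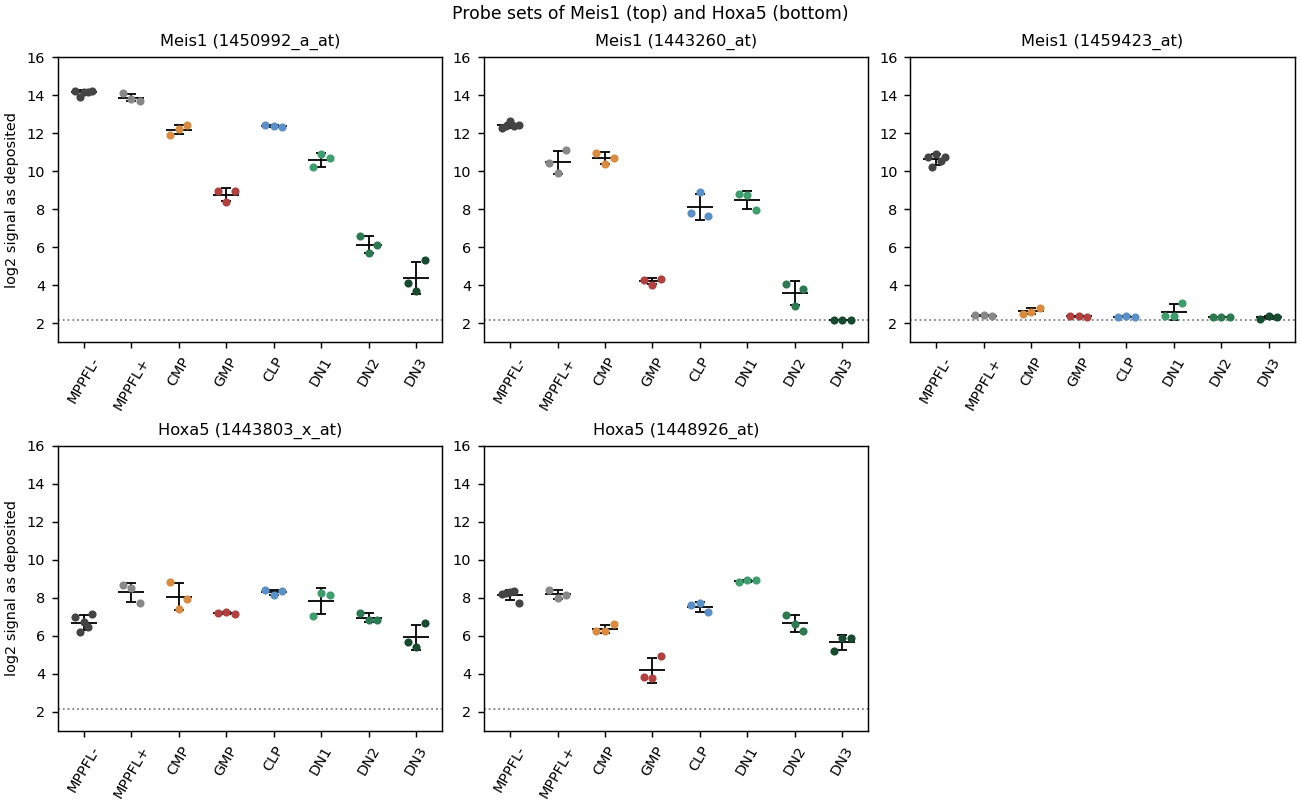
Log2 signal as deposited (vertical axis) of the 3 probe sets of Meis1 and the 2 of Hoxa5 in the 8 populations (horizontal axis). Points are arrays, bars means with SD (n = 5 for MPPFL-, n = 3 otherwise), and the dotted line is the lowest value of the table. Meis1 1459423_at averages 10.63 in MPPFL- and 2.40 in MPPFL+, and Hoxa5 1448926_at averages 4.18 in GMP while 1443803_x_at averages 7.20 there.

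Hoxa7, the neighbour of Hoxa9 on its 3′ side among the members, had its highest level in the early thymus. Its probe set, 1449499_at, gave 6.10, 6.37, 5.17, 5.71 and 5.67 in MPPFL-, and 6.37, 6.44 and 5.62 in MPPFL+. It gave 5.90, 7.32 and 7.79 in CMP, 4.20, 6.13 and 5.26 in GMP, and 6.93, 6.37 and 6.49 in CLP. DN1 had 9.99, 9.30 and 9.69, DN2 had 8.11, 9.07 and 8.62, and DN3 had 4.30, 5.36 and 6.37. DN1 and DN2 stood above the arrays of the other 6 populations, whose neighbours in the order all overlapped. The SD reached 0.99 in CMP, 0.97 in GMP and 1.04 in DN3, against 0.14 to 0.51 for Hoxa9 in the same populations.

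Hoxa5, a gene near the middle of the cluster, was measured by a pair of probe sets that gave different orders, with a Pearson correlation of 0.409 over the 8 population means. Probe set 1448926_at gave 8.19, 8.23, 8.28, 8.35 and 7.72 in MPPFL-, and 8.42, 7.96 and 8.17 in MPPFL+. It gave 6.25, 6.25 and 6.60 in CMP, 3.84, 3.75 and 4.95 in GMP, and 7.61, 7.74 and 7.24 in CLP. In the thymus it gave 8.83, 8.93 and 8.92 in DN1, 7.11, 6.60 and 6.25 in DN2, and 5.21, 5.89 and 5.89 in DN3. DN1 was highest and GMP lowest, neither overlapping its neighbour. The leading set, 1443803_x_at, is of the array maker's x type, whose probes can match other transcripts. It averaged 6.70 ± 0.38 in MPPFL- (SD, n = 5), 8.29 ± 0.49 in MPPFL+, 8.06 ± 0.73 in CMP, 7.20 ± 0.07 in GMP, 8.29 ± 0.14 in CLP, 7.82 ± 0.66 in DN1, 6.96 ± 0.22 in DN2 and 5.92 ± 0.65 in DN3 (SD, n = 3 each). Every neighbour in that order overlapped.

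Hoxa3, toward the 3′ end of the cluster and known in mice for thymus and parathyroid formation, was highest in MPPFL+. Its leading set, 1427433_s_at, gave 7.08, 5.88, 6.27, 5.76 and 5.59 in MPPFL-, and 7.27, 6.74 and 6.75 in MPPFL+. It averaged 5.14 ± 0.25 in CMP, 4.69 ± 0.58 in GMP, 6.28 ± 0.22 in CLP, 5.01 ± 0.11 in DN1, 3.25 ± 0.76 in DN2 and 4.28 ± 0.52 in DN3 (SD, n = 3 each). MPPFL- overlapped both MPPFL+ and CLP, and neighbours in the order among CMP, DN1, GMP and DN3 overlapped. Probe set 1452421_at left its low value of about 2.77 mainly in CLP, where it gave 4.28, 3.72 and 3.61. Of the remaining Hoxa3 sets, 1429398_at lay at the lowest value of the table on 18 arrays and did not exceed 3.21, and 1431392_at lay there on 22 arrays and did not exceed 2.31.

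Hoxa10, which lies on the 5′ side of Hoxa9 and takes part in myeloid progenitor growth, was clearly above its low level in MPPFL+ and CLP. Its leading set, 1431475_a_at, gave 6.88, 7.04 and 6.06 in MPPFL+, and 3.52, 4.72, 2.48, 2.71 and 3.17 in MPPFL-. It gave 3.79, 3.94 and 4.32 in CLP. In CMP it gave 2.71, 2.79 and 2.31, and in GMP, DN1, DN2 and DN3 every array lay between 2.17 and 2.31. MPPFL+ overlapped no other population, whereas the MPPFL- arrays overlapped those of CLP and CMP. The second set, 1446408_at, lay at the lowest value of the table on all 26 arrays.

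A limma F test over the 8 populations was passed by 12 of the 14 member probe sets (Benjamini-Hochberg adjusted p under 0.05 over all probe sets), while 50.1% of all probe sets passed it. The exceptions were Hoxa3 1431392_at (adjusted p = 0.573) and Hoxa10 1446408_at. The 8 comparisons between populations below come from the same fit of all arrays. Differences are given as log2 fold change with its standard error (SE), and the median over all probe sets, many at the lowest value, was 0 in each comparison. Over the 22519 brighter probe sets it ran from -0.19 in CMP with MPPFL+ to 0.08 in CLP with GMP. Over the 14 member probe sets, 5 of which had no population mean above 6, the median was 0.02 in MPPFL+ with MPPFL-, -0.44 in CMP with MPPFL+, -0.37 in GMP with CMP, -0.52 in CLP with MPPFL+, 0 in DN1 with CLP, -0.59 in DN2 with DN1, -0.09 in DN3 with DN2 and 1.25 in CLP with GMP.

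**Figure D3:**
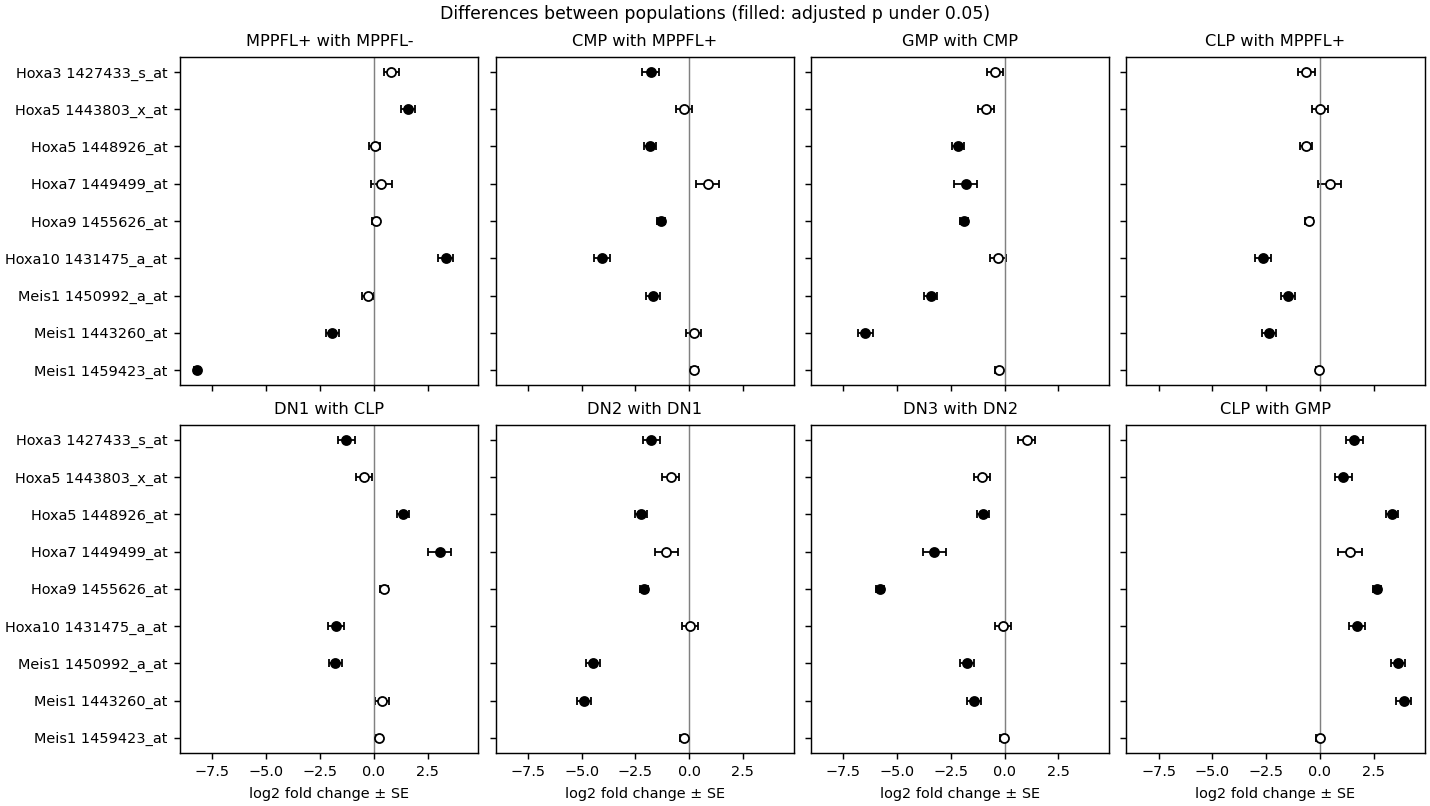
Log2 fold change with SE (horizontal axis) of the 9 member probe sets with a population mean above 6 (vertical axis) in the 8 comparisons, the population named first over the second. Filled points passed at an adjusted p under 0.05 in the fit of all 26 arrays. The 5 calls in GMP with CMP lie on the lower side and the 8 in CLP with GMP, 1 of them in a Hoxa3 set not drawn, on the higher side.

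Between the MPP populations, Hoxa10 was higher in MPPFL+ and 2 of the 3 Meis1 probe sets were lower. Hoxa10 averaged 6.66 ± 0.52 in the 3 MPPFL+ arrays and 3.32 ± 0.88 in the 5 MPPFL- arrays (SD), a log2 fold change of 3.34 (SE 0.34, adjusted p = 1.02e-06, 10.1-fold). Hoxa5 1443803_x_at was higher in MPPFL+ by 1.59 (SE 0.34, adjusted p = 0.00264). Meis1 1459423_at had a log2 fold change of -8.23 in MPPFL+ (SE 0.14, adjusted p = 1.13e-17), which is at least 300.0-fold lower. Meis1 1443260_at fell by 1.93 (SE 0.30, adjusted p = 0.000158), whereas the leading Meis1 set had a log2 fold change of -0.27 (adjusted p = 0.814). Hoxa9 had a log2 fold change of 0.08 and Hoxa3 of 0.80 (adjusted p = 0.155), neither past the test. In all, 2 of the 14 member probe sets were higher and 2 lower, beside 7.56% and 7.44% of all probe sets. The signal difference between 3′ and 5′ control probe sets, a measure of RNA length, averaged 2.90 in MPPFL+ and 3.68 in MPPFL-, and with it as a covariate 1459423_at had a log2 fold change of -8.37 (adjusted p = 6.52e-17). Without MPPFL- replicate 1, Hoxa3 passed (log2 fold change 1.05, adjusted p = 0.0347).

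At the first myeloid step, CMP had lower Hoxa9, Hoxa10 and Hoxa3 than MPPFL+, and lower Hoxa5 and Meis1 by 1 probe set each. Hoxa10 had a log2 fold change of -4.05 in CMP (SE 0.38, adjusted p = 3.88e-07), at least 16.6-fold lower. Hoxa9 averaged 13.19 ± 0.22 in CMP and 14.48 ± 0.14 in MPPFL+ (SD, n = 3 each), 2.45-fold lower (log2 fold change -1.29, SE 0.19, adjusted p = 7.68e-05). The leading Meis1 set fell by 1.68 (SE 0.31, adjusted p = 0.000644), Hoxa5 1448926_at by 1.82 (adjusted p = 0.000122) and Hoxa3 1427433_s_at by 1.78 (adjusted p = 0.0032). Meis1 1443260_at had a log2 fold change of 0.21 (adjusted p = 0.975) and Hoxa7 of 0.86 (adjusted p = 0.339). The leading Hoxa5 set, 1443803_x_at, did not pass and its arrays overlapped (-0.23, adjusted p = 0.975). The counts were 0 higher and 5 lower of 14, beside 4.9% and 11.1% of all probe sets. With clusters of arrays by spike-in signal as a random block, Hoxa3 no longer passed (adjusted p = 0.0691). Quantile normalization, which moved the median of the 22519 brighter probe sets by 0.20 and the share of higher calls over all probe sets to 46.6%, from 30.6% as deposited, kept all 5 calls, as did leaving out CMP replicate 1.

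At the second myeloid step, GMP had lower Meis1 and Hoxa9 than CMP, along with Hoxa7 and 1 of the 2 Hoxa5 probe sets. Meis1 averaged 8.75 ± 0.34 in GMP and 12.19 ± 0.25 in CMP by the leading set (SD, n = 3 each), 10.8-fold lower (log2 fold change -3.44, SE 0.31, adjusted p = 1.28e-07). By 1443260_at the log2 fold change was -6.47 (SE 0.34, adjusted p = 4.79e-11, 88.7-fold). Hoxa9 fell by 1.88 (SE 0.19, adjusted p = 6.78e-07) and Hoxa5 1448926_at by 2.19 (SE 0.28, adjusted p = 1.31e-05), while Hoxa5 1443803_x_at did not pass (-0.86, adjusted p = 0.153). Hoxa7 fell by 1.81 (SE 0.54, adjusted p = 0.0264), with arrays of GMP and CMP that overlapped. Of the 14 probe sets, 0 were higher and 5 lower, beside 9.86% and 6.29% of all probe sets. The Hoxa7 call was lost with the 2 populations fitted alone (adjusted p = 0.339), with the spike-in block (0.23), and without CMP replicate 2 (0.0636), CMP replicate 3 (0.108), GMP replicate 1 (0.156) or GMP replicate 3 (0.0585). Hoxa5 1448926_at was lost with the 2 populations alone (adjusted p = 0.0572).

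At the first lymphoid step, CLP had lower Meis1 and Hoxa10 than MPPFL+, and both populations had like spike-in signal. Meis1 averaged 12.38 ± 0.05 in CLP and 13.87 ± 0.20 in MPPFL+ by the leading set (SD, n = 3 each), 2.81-fold lower (log2 fold change -1.49, SE 0.31, adjusted p = 0.00495). By 1443260_at it fell by 2.37 (SE 0.34, adjusted p = 0.000115). Hoxa10 fell by 2.64 (SE 0.38, adjusted p = 0.000115), to a level in CLP that was 6.24-fold lower. Hoxa9 had a log2 fold change of -0.53 (adjusted p = 0.192). No Hoxa3, Hoxa5 or Hoxa7 probe set passed. The counts were 0 higher and 3 lower, beside 1.73% and 2.39% of all probe sets. With the 2 populations fitted alone, Hoxa10 (adjusted p = 0.0554) and Meis1 1443260_at (0.187) no longer passed. In the fit of arrays of 1 spike-in cluster, Hoxa9 passed (log2 fold change -0.53, adjusted p = 0.00649).

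Between marrow and thymus, DN1 had higher Hoxa7 and lower Hoxa10 and Hoxa3 than CLP, while the probe sets of Hoxa5 and of Meis1 differed among themselves. Hoxa7 averaged 9.66 ± 0.35 in DN1 and 6.60 ± 0.30 in CLP (SD, n = 3 each), 8.35-fold higher (log2 fold change 3.06, SE 0.54, adjusted p = 0.000284). Hoxa5 1448926_at was higher in DN1 by 1.37 (SE 0.28, adjusted p = 0.00105). The leading Meis1 set fell by 1.79 (SE 0.31, adjusted p = 0.000207) and Hoxa10 by 1.75 (SE 0.38, adjusted p = 0.00167), the second at least 3.37-fold. The signs of the other sets were opposite and neither passed: Hoxa5 1443803_x_at had a log2 fold change of -0.47 (adjusted p = 0.52) and Meis1 1443260_at of 0.38 (adjusted p = 0.59). Hoxa3 fell by 1.27 by 1427433_s_at (adjusted p = 0.0215) and by 1.10 by 1452421_at (adjusted p = 0.00108), the second at least 2.15-fold. Hoxa9 had a log2 fold change of 0.47 (adjusted p = 0.0854). Of the 14 probe sets, 2 were higher and 4 lower, beside 10.2% and 13% of all probe sets. Without the 4 arrays with Xist, 4 calls were made: Hoxa7 (log2 fold change 2.70, adjusted p = 0.0277), Hoxa5 1448926_at (1.40, adjusted p = 0.0199), leading Meis1 (-1.47, adjusted p = 0.0185) and Hoxa3 1452421_at (adjusted p = 0.0384) passed, and Hoxa10 (adjusted p = 0.0564) and Hoxa3 1427433_s_at (0.144) did not. With the spike-in block the last 2 were also lost (adjusted p = 0.062 and 0.233), and Hoxa3 1427433_s_at further without DN1 replicate 3 (0.0587), CLP replicate 1 (0.0543) or CLP replicate 2 (0.0743).

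From the first to the second thymic stage, DN2 had lower Meis1, Hoxa9 and Hoxa3 than DN1, and lower Hoxa5 by 1 of its 2 probe sets. Meis1 averaged 6.13 ± 0.45 in DN2 and 10.60 ± 0.37 in DN1 by the leading set (SD, n = 3 each), 22.2-fold lower (log2 fold change -4.47, SE 0.31, adjusted p = 9.14e-09), and by 1443260_at fell by 4.90 (SE 0.34, adjusted p = 1.05e-08). Hoxa9 averaged 12.31 ± 0.32 in DN2 and 14.43 ± 0.17 in DN1, 4.35-fold lower (log2 fold change -2.12, SE 0.19, adjusted p = 4.12e-07). Hoxa5 1448926_at fell by 2.24 (adjusted p = 2.83e-05) and Hoxa3 1427433_s_at by 1.76 (adjusted p = 0.00911). Hoxa5 1443803_x_at did not pass and its arrays overlapped (-0.86, adjusted p = 0.267). Hoxa7 had a log2 fold change of -1.06 (adjusted p = 0.328). The counts were 0 higher and 5 lower, beside 2.74% and 2.74% of all probe sets. Without the arrays with Xist, the leading Meis1 set (log2 fold change -4.33, adjusted p = 1.75e-05), 1443260_at (-4.66, adjusted p = 9.27e-06), Hoxa9 (-2.11, adjusted p = 0.000227) and Hoxa5 1448926_at (-1.81, adjusted p = 0.0325) passed, while Hoxa3 did not (-1.35, adjusted p = 0.381). With the 2 populations alone, Hoxa3 (adjusted p = 0.267) and Hoxa5 (0.0596) did not pass, and without DN2 replicate 3 Hoxa3 did not (0.0607).

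From the second to the third thymic stage, Hoxa9 had its widest step of the 8 comparisons. It averaged 6.52 ± 0.51 in DN3 and 12.31 ± 0.32 in DN2 (SD, n = 3 each), 55.5-fold lower (log2 fold change -5.79, SE 0.19, adjusted p = 1.92e-14). Hoxa7 averaged 5.34 ± 1.04 in DN3 and 8.60 ± 0.48 in DN2, 9.57-fold lower (log2 fold change -3.26, SE 0.54, adjusted p = 0.000131). The leading Meis1 set fell by 1.74 (SE 0.31, adjusted p = 0.000228), 1443260_at by 1.42 (adjusted p = 0.00375), which is at least 2.67-fold, and Hoxa5 1448926_at by 0.99 (adjusted p = 0.0121). Hoxa3 had a log2 fold change of 1.03 (adjusted p = 0.0645) and Hoxa5 1443803_x_at of -1.04 (adjusted p = 0.054). Of the 14 probe sets, 0 were higher and 5 lower, beside 12.6% and 11.3% of all probe sets. Without the arrays with Xist all 5 calls were made, Hoxa9 at -5.95 (adjusted p = 1.01e-10), Hoxa7 at -2.77 (adjusted p = 0.0296), leading Meis1 at -2.20 (adjusted p = 0.00146), 1443260_at at -1.89 (adjusted p = 0.0054) and Hoxa5 1448926_at at -1.45 (adjusted p = 0.0202). With the 2 populations alone, the calls of leading Meis1 (adjusted p = 0.124), 1443260_at (0.0735) and Hoxa5 1448926_at (0.148) were lost, and with the spike-in block those of 1443260_at (0.0653) and Hoxa5 1448926_at (0.123). The Hoxa5 1448926_at call was also lost without DN2 replicate 1 (adjusted p = 0.0731) or DN3 replicate 1 (0.0819), Hoxa3 passed without DN2 replicate 1 (0.0361), and Hoxa5 1443803_x_at passed without DN3 replicate 3 (0.0119). Both also passed with dim probe sets left out (adjusted p = 0.0272 and 0.0226).

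Set against GMP, CLP had higher Hoxa9, Meis1, Hoxa5, Hoxa10 and Hoxa3, while Hoxa7 missed the threshold. Hoxa9 averaged 13.96 ± 0.08 in CLP and 11.31 ± 0.14 in GMP (SD, n = 3 each), 6.28-fold higher (log2 fold change 2.65, SE 0.19, adjusted p = 2.63e-09). Meis1 was higher in CLP by 3.63 (SE 0.31, adjusted p = 2.79e-08) by the leading set and by 3.89 (adjusted p = 4.41e-08) by 1443260_at. Hoxa5 1448926_at was higher by 3.35 (SE 0.28, adjusted p = 2.3e-08), and Hoxa3 1427433_s_at by 1.59 (adjusted p = 0.00507). In GMP Hoxa10 and Hoxa3 1452421_at were at their low level, so that Hoxa10 was at least 3.27-fold higher in CLP (log2 fold change 1.71, adjusted p = 0.00216) and Hoxa3 1452421_at at least 2.06-fold (1.04, adjusted p = 0.00177). Hoxa5 1443803_x_at was higher by 1.09 (adjusted p = 0.0484). Hoxa7 had a log2 fold change of 1.40 (adjusted p = 0.0798), with arrays that did not overlap. The counts were 8 higher and 0 lower of 14, beside 11.3% and 9.42% of all probe sets. With the spike-in block 4 passed, and Hoxa3 1427433_s_at (adjusted p = 0.114), Hoxa3 1452421_at (0.0652), Hoxa10 (0.0731) and Hoxa5 1443803_x_at (0.321) did not. The Hoxa5 1443803_x_at call was also lost without any 1 of the 6 arrays of these populations (adjusted p = 0.0763 to 0.121), and with quantile normalization (0.214). Hoxa7 passed without GMP replicate 2 (log2 fold change 1.87, adjusted p = 0.0285) and with dim probe sets left out (adjusted p = 0.0312). The difference between 3′ and 5′ control probe sets averaged 3.01 in CLP and 1.72 in GMP. With it as a covariate Hoxa7 passed (log2 fold change 2.00, adjusted p = 0.0353) and Hoxa5 1443803_x_at did not (1.23, adjusted p = 0.0921).

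The members followed Meis1 to different degrees over the 8 population means of their leading sets, which share arrays and are given as a description. Pearson correlation with Meis1 was 0.873 for Hoxa3, 0.844 for Hoxa9, 0.681 for Hoxa5, 0.625 for Hoxa10 and -0.04 for Hoxa7. Between Hoxa9 and Hoxa7 it was 0.416, and between Hoxa3 and Hoxa7 -0.32. Among other genes whose population means reached the median level and spanned at least 2 log2 units, the 5 most like Meis1 were Itsn1 (r = 0.994), Abhd14a, Gcnt2, Ifitm3 and Prkce. Those most like Hoxa9 were Abi2 (r = 0.986), 9030619P08Rik, Ctnna1, Plek and Abcb1b. Those most like Hoxa7 were Limk1 (r = 0.960), Dus4l, Fasl, Mid1 and Atf3. Hoxa3 was nearest to Tcea2 (r = 0.970), Ampd3, Etv5, Sgsm1 and Dync2li1. Hoxa5 was nearest to Runx3 (r = 0.966), Haao, Plxnb2, Dusp6 and Zfp36, and Hoxa10 to Postn (r = 0.957), Samd10, Wfdc18, Armcx6 and Lrrn4.

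Of 34 other Hox genes, 28 were measured by a probe set of 1 symbol, and the leading sets of 21 stayed within 1 log2 unit of the table's lowest value on every array. Only Hoxb3 and Hoxb4, which belong to another Hox cluster, had a population mean above 7. Hoxb3 averaged 7.74 ± 0.18 in the 3 MPPFL+ arrays and 8.76 ± 0.34 in the 5 MPPFL- arrays (SD), with a log2 fold change of -1.02 (adjusted p = 0.0123), a call lost without MPPFL+ replicate 2 (0.0756). Against MPPFL+, its log2 fold change was -3.60 in CMP (SE 0.30, adjusted p = 9.47e-08) and -2.94 in CLP (SE 0.30, adjusted p = 1.63e-06). Hoxb4 averaged 7.01 in DN1 and 5.87 in CLP (log2 fold change 1.13, adjusted p = 0.0144, and 0.026 without the arrays with Xist). That call was lost with the spike-in block (adjusted p = 0.14), with the 2 populations alone (0.165), and without CLP replicate 3 (0.0873), DN1 replicate 1 (0.0599) or DN1 replicate 2 (0.0749). The highest Hoxb4 mean was in MPPFL-, at 7.07, against 5.98 in MPPFL+. Hoxb5 was also lower in MPPFL+ than in MPPFL-, at 2.21 and 2.83, both near the lowest value of the table (log2 fold change -0.62, adjusted p = 5.2e-06).

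TALE proteins bind DNA as partners of Hox proteins, and 8 of 9 listed besides Meis1 were measured. Pbx3, a partner of Hoxa9 and Meis1, fell at the last thymic stage together with Hoxa9: it averaged 2.41 ± 0.32 in DN3 and 5.90 ± 1.01 in DN2 (SD, n = 3 each), a log2 fold change of -3.49 (SE 0.52, adjusted p = 4.04e-05), at least 11.3-fold. It was -3.81 without the arrays with Xist (adjusted p = 0.0009). Pbx3 gave 8.07, 7.34 and 7.69 in GMP, against 11.05, 8.39 and 8.66 in CMP (log2 fold change -1.67, adjusted p = 0.033). Without CMP replicate 1, its highest array, the value was -0.83 and did not pass (adjusted p = 0.21). The Pbx3 difference of MPPFL+ with MPPFL- (-1.44, adjusted p = 0.0422) was lost without any 1 of the 8 arrays of these populations (adjusted p = 0.0546 to 0.161). Pbx2 averaged 8.23 to 9.51 and passed in no comparison. Tgif1, a TALE repressor, was higher in DN3 than in DN2 by 2.51 (adjusted p = 0.00136), which did not pass without the arrays with Xist (1.93, adjusted p = 0.051). Pknox1 was lower in GMP than in CMP (log2 fold change -0.72, adjusted p = 0.0191), a call lost without CMP replicate 1 (adjusted p = 0.0827), CMP replicate 3 (0.0673), GMP replicate 2 (0.0686) or GMP replicate 3 (0.0802). Elsewhere Pknox1 averaged 9.61 in CLP and 8.80 in DN1, beside 8.02 in GMP. Tgif1 averaged 7.67 in MPPFL- and 10.06 in MPPFL+, and Pbx4 2.71 in DN2 and 3.84 in DN3.

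**Figure D4:**
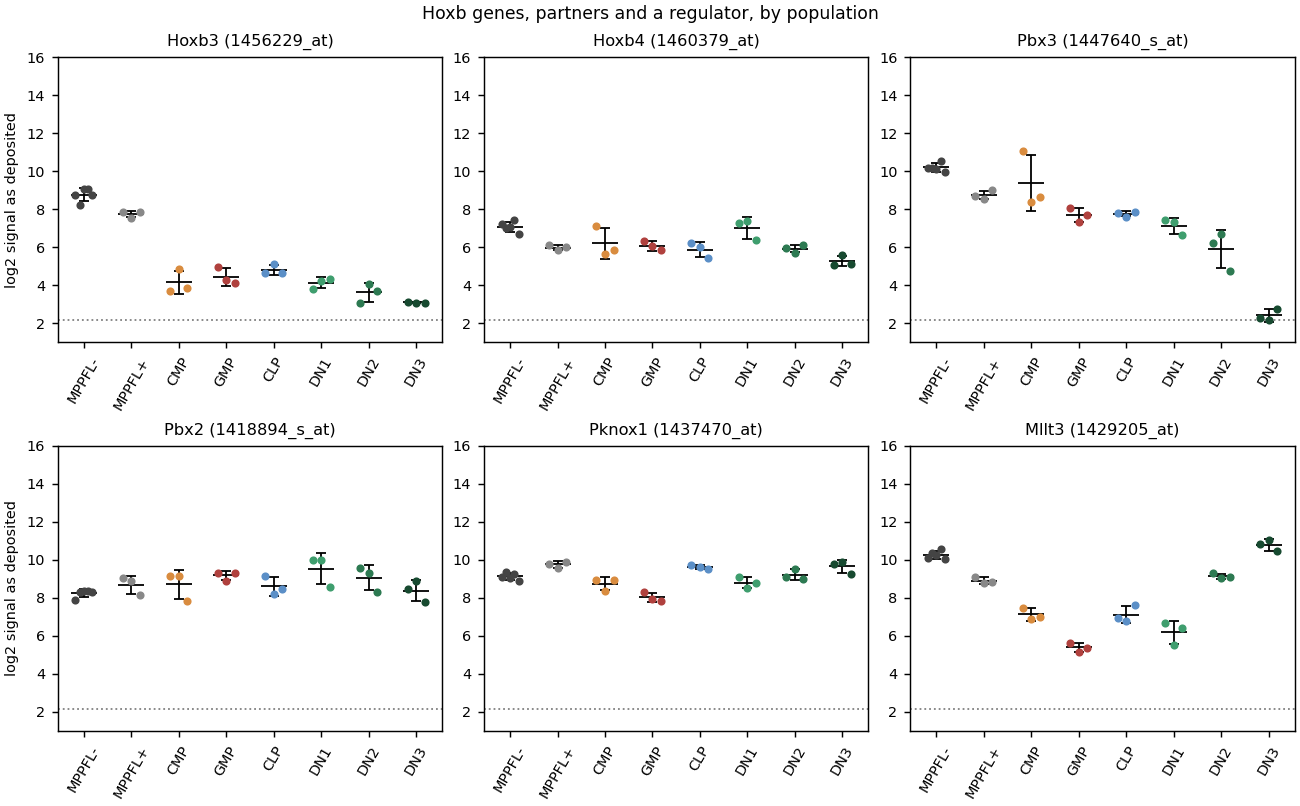
Log2 signal as deposited (vertical axis) of Hoxb3, Hoxb4, the TALE genes Pbx3, Pbx2 and Pknox1, and the regulator Mllt3 in the 8 populations (horizontal axis). Points are arrays, bars means with SD (n = 5 for MPPFL-, n = 3 otherwise), and the dotted line is the lowest value of the table. Pbx3 averages 2.41 in DN3, its lowest mean, while Mllt3 averages 10.77 there, its highest.

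Of 18 genes that regulate Hoxa transcription (Kmt2a and its cofactors, Dot1l and elongation partners, Cdx factors and Polycomb subunits), all were measured. Mllt3, a reader of acylated histones that recruits Dot1l, averaged 10.25 in MPPFL-, 8.90 in MPPFL+, 7.12 in CMP and 5.39 in GMP, and passed as lower at each of these steps (log2 fold change -1.35, adjusted p = 0.000446 in MPPFL+ with MPPFL-, -1.78, adjusted p = 8.16e-05 in CMP with MPPFL+, and -1.73, adjusted p = 0.000101 in GMP with CMP). In the thymus it went the other way from Hoxa9 and Meis1: it averaged 9.14 in DN2 and 6.19 in DN1 (log2 fold change 2.95, SE 0.26, adjusted p = 4.09e-07), and 10.77 in DN3. The value for DN2 with DN1 was 3.78 without the arrays with Xist (adjusted p = 4.18e-06), and with these 2 populations alone it did not pass (adjusted p = 0.0693). Kmt2a, a histone methyltransferase that maintains Hoxa9 transcription, was higher in DN3 than in DN2 by 2.19 (SE 0.28, adjusted p = 5.93e-06), and Dot1l by 2.26 (adjusted p = 0.00199). Men1 (1.40), Mllt1 (1.97), Mllt3 (1.64) and Mllt10 (0.89) were the other regulators that passed as higher there. Those lower were all Polycomb genes: Ezh2 (-0.84), Eed (-0.85), Suz12 (-0.47) and Bmi1 (-0.57). The Polycomb gene Rnf2 did not pass (0.32, adjusted p = 0.159). Leaving out the arrays with Xist gave, in this order, 1.51, 1.96, 1.49, 0.87, -0.70, -0.72, -0.44, -0.55 and 0.39. The calls of Mllt10, Eed, Suz12 and Bmi1 were not kept in that fit, which holds 1 DN2 array. Without the arrays with Xist, Kmt2a had 2.38 (adjusted p = 4.45e-05) and Dot1l 1.80 (adjusted p = 0.0994), so that only the first passed.

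All 13 genes listed as reported targets of Hoxa9 and Meis1 were measured. In GMP with CMP, passing genes included Trib2, a pseudokinase, which lay near the lowest value of the table in GMP and was at least 167-fold lower there (log2 fold change -7.39, adjusted p = 5.07e-11), the cytokine receptor Flt3 at a log2 fold change of -5.87 (SE 0.40, adjusted p = 3.03e-09) and the transcription factor Sox4 at -1.89 (adjusted p = 3e-06, and 0.0504 with the 2 populations alone). In DN2 with DN1, they included Flt3 at -6.23 (adjusted p = 4.46e-09), the transcription cofactor Lmo2 at -4.08 (adjusted p = 2.61e-10) and the transcription factor Mef2c at -2.01 (adjusted p = 1.29e-06). These were, without the arrays with Xist, -4.81, -3.80 and -1.71, all past the test (adjusted p = 6.98e-07, 1.4e-06 and 0.00193), while with the 2 populations alone Flt3 (adjusted p = 0.0626) and Mef2c (0.0596) did not pass. In DN3 with DN2, the surface protein gene Cd34 and Lmo2 lay near the lowest value in DN3 and were at least 346-fold and 28.8-fold lower (log2 fold change -8.43, adjusted p = 7.79e-15, and -4.85, adjusted p = 2.05e-12), and Mef2c was at -3.57 (adjusted p = 5.69e-11). These 3 were, without the arrays with Xist, -8.43, -5.09 and -3.79 (adjusted p = 9.77e-11, 4.48e-09 and 3.81e-08). In CLP with GMP, Flt3 was higher by 8.68 (adjusted p = 4.26e-12) and Sox4 by 2.90 (adjusted p = 4.12e-09). Flt3 was also read above as a check of the population names, and the part of cell selection in its level was not tested. Targets also rose in the thymus, and in DN3 with DN2 4 of the 13 passed as higher and 4 as lower. Those higher included Sox4 (0.80, adjusted p = 0.00868) and Myb (0.37, adjusted p = 0.00514). They were at 0.62 and 0.30 without the arrays with Xist, where the Sox4 call was not kept. In DN1 with CLP 3 targets were higher and 6 lower. The widest change there was that of Flt3, with a log2 fold change of -2.87 (adjusted p = 2.81e-05), and -2.93 without the arrays with Xist. Trib2 was higher in DN1 by 2.25 (adjusted p = 0.000226), and by 2.59 without the arrays with Xist.

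More regulators and more targets passed as lower than as higher in CMP with MPPFL+, GMP with CMP and DN1 with CLP, and 10, 12 and 9 of the 18 regulators passed in neither direction there. In CMP with MPPFL+, where 4.82% of all leading sets were higher and 17.2% lower, 1 regulator was higher and 7 lower, and 1 target was higher and 5 lower. After quantile normalization, which moved the share of higher calls as given above, the counts there were 2 and 4 regulators and 2 and 5 targets, and without CMP replicate 1 they were 1 and 4 and 2 and 5. In GMP with CMP, beside 12.9% higher and 7.23% lower, the counts were 1 and 5 regulators, with a median log2 fold change of -0.01, and 1 and 8 targets, with a median of -1.02. In DN1 with CLP, beside 7.79% and 18.3%, they were 2 and 7 regulators and 3 and 6 targets, and without the arrays with Xist 2 and 5 and 1 and 6. CLP with GMP and DN3 with DN2 had more of the regulators on the higher side. In CLP with GMP, 8 regulators were higher and 2 lower and 5 targets higher and 1 lower, beside 15.9% and 11.1% of leading sets. In DN3 with DN2, 6 regulators were higher and 4 lower and 4 targets higher and 4 lower, beside 16.1% and 13.7%. They were 4 and 1 regulators and 3 and 5 targets without the arrays with Xist. Fewer passed in the rest. In DN2 with DN1, 2 regulators were higher and 0 lower and 0 targets higher and 5 lower, beside 3.57% and 3.79%, and without the arrays with Xist 1 and 0 regulators and 1 and 4 targets. In MPPFL+ with MPPFL-, 1 regulator was higher and 2 lower and 3 targets higher and 2 lower, beside 10.4% and 5.13%. In CLP with MPPFL+, 1 regulator was higher and 1 lower and 1 target higher and 3 lower, beside 2.31% and 3.66%.

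The other Hox genes and TALE genes gave few calls beside those same shares. Of the 28 Hox genes, 3 were lower in MPPFL+ with MPPFL-, 2 in CMP with MPPFL+ and 1 in CLP with MPPFL+, while 1 was higher in DN1 with CLP and 1 in DN3 with DN2. The last was Hoxa11, which averaged 2.28 in DN3 and lay at the lowest value of the table on 24 arrays (log2 fold change 0.11, adjusted p = 0.0206). In limma 0 of the 28 passed in GMP with CMP, DN2 with DN1 or CLP with GMP, where 3, 2 and 2 had an unadjusted p under 0.05. Of the 8 TALE genes, 2 were higher and 1 lower in MPPFL+ with MPPFL- and in DN3 with DN2, 2 were lower in CMP with MPPFL+ and in GMP with CMP, 1 was lower in DN1 with CLP and 1 higher in CLP with GMP. In CLP with MPPFL+ and DN2 with DN1, 0 of the 8 passed in limma, and 0 and 3 had an unadjusted p under 0.05. Without the arrays with Xist, the Hox counts were 3 higher and 0 lower in DN1 with CLP and 0 and 1 in both DN2 with DN1 and DN3 with DN2, and the TALE counts were 0 and 2, 0 and 0, and 1 and 1. Without CMP replicate 1, 0 TALE genes passed in GMP with CMP.

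Markers of other cells were read beside these levels. The stem list (4 genes) averaged 11.16 in MPPFL-, 9.83 in MPPFL+, 6.87 in CMP, 3.84 in GMP, 5.52 in CLP, 4.10 in DN1, 3.18 in DN2 and 2.66 in DN3, with 0 of its genes within 1 log2 unit of the lowest value in both MPP populations and CMP and 1 or 2 elsewhere. The erythroid and megakaryocyte list (4 genes) averaged 6.66 in MPPFL-, 4.27 in MPPFL+, 9.34 in CMP and 4.90 in GMP, and 2.91 to 3.44 in the rest. The lymphoid progenitor list averaged 7.89 in MPPFL+ and 4.05 in MPPFL-, and 12.01 in CLP and 2.39 in GMP. The mature B cell list (2 of 3 genes measured) lay near the lowest value of the table in every population, and 4 of 5 mesenchymal stroma genes lay within 1 log2 unit of it, the exception being Pdgfrb (7.10 in GMP to 13.50 in DN1). The thymic epithelium list averaged 2.54 to 2.76 outside DN3 and 4.23 in DN3, where Epcam was at 10.61 and Foxn1 and Psmb11 lay at or near the lowest value. The T lineage list averaged 3.82 in DN1, 7.42 in DN2 and 12.46 in DN3, and the granulocyte-macrophage list 10.72 in MPPFL+, 13.60 in CMP, 14.99 in GMP, 9.78 in CLP, 9.65 in DN1, 6.59 in DN2 and 2.93 in DN3. The macrophage and dendritic list (4 genes) averaged 2.62 to 4.31, with Adgre1 at 9.03 in GMP, Itgax at 7.21 in CLP and C1qb at 6.41 in MPPFL-. The endothelium list (4 genes) averaged 3.02 to 4.25, with Pecam1 at 7.41 in CLP and Emcn at 6.59 in MPPFL+. The part of these lists in the differences of the members was not tested.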

How the data were processed

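Expression was measured on 26 arrays, with biotin-labelled cRNA made by the array maker's protocol, per the labels. The deposited log2 values, 1 per probe set, were used as they stand; the authors' normalization and summary of probes were not given in the sources used here. Of 45101 probe sets, 64 controls were left out. Probe sets were named from the platform annotation (34958 with 1 symbol, 932 with several, 9211 with none), and 34754 gene IDs were found in the RefSeq table. All 26 arrays were fitted with limma 3.58.1 (R 4.3.3; lmFit, eBayes) with no term but population (18 residual and 0.482 prior degrees of freedom), two-sided, with Benjamini-Hochberg adjustment over 45037 probe sets within each comparison and a threshold of 0.05. Listed genes were read in the same fit from their leading probe set, of 18193 leading sets. Every member was named, and up to 3 passing genes of each list per comparison, with more regulators and targets in DN3 with DN2. Where the lower population of a passing difference lay within 1 log2 unit of the lowest value, or at a shared low value, its fold is given as "at least" and its log2 fold change bounds the size only. The alternatives for the listed genes were added after seeing the data. The procedure was tested on simulated data. Members, lists and tests were chosen with earlier results of these data known. The number of arrays limits the precision.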

Additional observations from a re-analysis of the deposited data

Results flagged for a closer look

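Within the 5 MPPFL- arrays, 4 member probe sets had 1 array set apart from the rest, its gap to the nearest array over the range exceeding Dixon's critical value of 0.71. By chance about 1 in 20 such groups exceeds it, a rate that does not hold where arrays share a low value, as in both Hoxa3 sets below. Hoxa3 1452421_at was at 3.907 on replicate 5, with the nearest array at 2.946. Hoxa5 1448926_at was at 7.721 on the same replicate, with the nearest at 8.192. Meis1 1450992_a_at was at 13.895 on replicate 2, with the other 4 between 14.179 and 14.238. Hoxa3 1431392_at was at 2.203 on replicate 3, with the other 4 at the lowest value of the table. With 4 tied arrays any other value on the remaining array exceeds the critical value, so that flag was fixed in advance.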

How the results depend on the processing

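No member difference that passed as reported or under an alternative changed direction between them. Of the 14 probe sets, counts of calls moved by more than 1.5 times as follows. With 1 leading probe set for each of the 6 genes, 2 passed in MPPFL+ with MPPFL-, 3 in GMP with CMP, 3 in DN2 with DN1, 5 in CLP with GMP, and 6 in the F test. With the 2 compared populations fitted alone, 3 passed in GMP with CMP, 1 in CLP with MPPFL+, 3 in DN2 with DN1 and 2 in DN3 with DN2. With arrays of 1 spike-in cluster, 3 passed in DN2 with DN1. That cluster holds only the arrays of DN1 and DN2, so this is the same fit as with these populations alone. With spike-in cluster as a random block, 3 passed in DN3 with DN2 and 4 in CLP with GMP. With the replicate block 5 passed in CLP with MPPFL+, and Hoxa5 1443803_x_at in CLP with GMP was lost (adjusted p = 0.076), while 4 other results on single probe sets newly passed. Deviations from the population mean were correlated between same-numbered arrays of the 2 compared populations, over all probe sets. All of these correlations were above 0.1 in 0 of the 8 comparisons (range -0.57 to 0.41), so the numbers were not taken as pairs. Leaving out 1 array at a time gave 4 to 6 in MPPFL+ with MPPFL-, 5 to 6 in CMP with MPPFL+, 4 to 5 in GMP with CMP, 3 to 3 in CLP with MPPFL+, 5 to 6 in DN1 with CLP, 4 to 5 in DN2 with DN1, 4 to 6 in DN3 with DN2, 7 to 8 in CLP with GMP and 11 to 12 in the F test. The causes were not tested, apart from the smaller number of probe sets or arrays that some alternatives hold by construction. Probe sets near the table's lowest value bound changes on 1 side only.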
